A study of Arabidopsis thaliana with 20 samples.

Results

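The SnRK2 kinases of *Arabidopsis thaliana* are a family of 10 genes, *SnRK2.1* to *SnRK2.10*, and were taken by their gene IDs from the 37184 genes counted in each library. Of the 10 members, 9 had a count in at least 1 library and 6 passed the filter on low counts, against 23032 and 10902 of all genes. RNA was compared between *msh-1*, where a T-DNA interrupts *MUSHER*, the lncRNA gene next to *DOG1*, and WT plants (Col-0), with 4 libraries of 3'RNA-seq per genotype. The labels describe siliques, 13 to 20 days after pollination, from soil-grown plants in a long-day greenhouse. The study's Results speak instead of freshly harvested seeds. In this method cDNA is primed at the polyA tail, so that a count marks a transcript's 3' end and levels of different genes are set side by side without division by length. Siliques and seeds both hold several cell types, and in such bulk RNA fewer cells of a type and less RNA per cell cannot be told apart.

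SnRK2s are plant protein kinases related to yeast SNF1 and are activated by osmotic stress and, in part, by abscisic acid (ABA). Subclass III (*SnRK2.2*, *SnRK2.3* and *SnRK2.6*, also called *OST1*) is the central kinase group of ABA signalling: ABA-bound PYR/PYL receptors inhibit clade A PP2C phosphatases, which otherwise keep these kinases inactive, and the released kinases phosphorylate bZIP factors such as ABI5. *SnRK2.2*, *SnRK2.3* and *SnRK2.6* act redundantly in seed dormancy and maturation, and *SnRK2.6* is best known from guard cells. Subclass I does not respond to ABA and subclass II responds weakly.

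The kinases share the activation loop, which holds a residue that in subclass III is phosphorylated and is the site that PP2Cs act on. The loop is shown for 7 members because it is what the family has in common and where *SnRK2.8* differs. Each line gives 30 coding bases, 5′ to 3′, read from the TAIR10.1 genome of RefSeq, with the codon of that residue in capitals.
SnRK2.10: tctatgcccaaaTCAactgttggaactcca
SnRK2.4: tctaggcccaaaTCAacagttggaactcca
SnRK2.7: tctcaaccaaaaTCCaccgtgggaactccg
SnRK2.8: tcgcaaccaaagACAacagtaggaacacct
SnRK2.2: tcccaaccaaagTCAactgttggtactcct
SnRK2.3: tcacaaccaaagTCAactgttggtactcct
SnRK2.6: tcgcaaccaaaaTCAactgttggaactcct

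The capital codon encodes a serine in 9 members and a threonine in *SnRK2.8*. In *SnRK2.6* it is codon 175, and the window lies in a single exon at chr4:16273517-16273546 on the plus strand. The window of *SnRK2.10* lies in a single exon at chr1:22440645-22440674 on the minus strand. Relative to *SnRK2.6*, the windows of *SnRK2.2* and *SnRK2.3* differ at 3 bases each and that of *SnRK2.4* at 7. Over the 45 pairs of members, identity of the coding sequences ran from 60.1% to 85.1%, and was highest for *SnRK2.1* with *SnRK2.5*. In the last 300 bases of the transcripts, where the counts arise, identity ran from 41.4% to 53.6% and the longest identical run was 17 bases. The 3' ends of *SnRK2.5* and *SnRK2.8* overlap genes on the other strand, by 382 and 169 bases, and the strand setting of the counting is not given in the sources used here, so the counts of these 2 members are uncertain. The 3' end of *SnRK2.3* overlaps AT5G66890 on the other strand by 28 bases, a gene with no count in any library, and that of *SnRK2.4* overlaps AT1G10930 on the same strand by 13 bases, a gene with 3 to 13 counts per library.

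The 4 *msh-1* libraries held 2590800 to 6500907 counts and the 4 WT libraries 959004 to 2498295, so every *msh-1* library was deeper than every WT library and depth and genotype cannot be told apart. A floor of 3 counts corresponded to 0.481 to 1.15 CPM (counts scaled to library size with edgeR's TMM factors) in *msh-1* and 1.20 to 3.29 CPM in WT. *DOG1*, the dormancy gene beside *MUSHER*, averaged 22.1 ± 1.11 CPM in *msh-1* and 42.0 ± 5.42 CPM in WT (SD, n = 4 each, edgeR adjusted p = 0.0046). *PIR1*, which encodes a RING finger protein that acts on PP2CA, had 2, 0, 0 and 0 counts in *msh-1* libraries 1 to 4, against 14, 23, 30 and 8 in WT libraries 1 to 4. The embryo storage genes were abundant in both genotypes: the sum of 4 of them was 35251 to 42096 CPM in *msh-1* and 32196 to 40843 CPM in WT. The 5 guard cell markers were near 0, with 31 counts in all in *msh-1* and 36 in WT, and the 4 seed coat markers had 88 counts in *msh-1* and 34 in WT. Of 5 green tissue genes 0 were called, and their sum was 31.9 to 103 CPM in *msh-1* and 16.4 to 95.5 CPM in WT. The low ends were *msh-1* library 1 and WT library 4. The other libraries had 98.3 to 103 CPM in *msh-1* and 77.2 to 95.5 CPM in WT. *msh-1* library 1 and WT library 4 deviated together from their genotype means over all tested genes (correlation of 0.40). They were left out together in an alternative fit. The green tissue genes differed among themselves: 3 of the 5 had an unadjusted p under 0.05 by edgeR, against 8.69% of all genes tested. These were *LHCB1.1* and *CAB1*, with log2 fold changes of 1.81 and 1.37, and *RCA*, with -1.70 (edgeR adjusted p = 0.268, 0.344 and 0.202).

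*SnRK2.10* (AT1G60940), a subclass I kinase, supplied most of the family's transcripts in both genotypes. It had 309, 330, 279 and 298 CPM in *msh-1* libraries 1 to 4, against 287, 328, 306 and 322 CPM in WT libraries 1 to 4. The groups overlap, and the log2 fold change was -0.03 ± 0.08 (SE, edgeR, adjusted p = 0.951), with a 95% interval from -0.20 to 0.14. In all 8 libraries it was higher than the other 9 members together. It was also higher in all 8 than every other gene with "protein kinase", "kinase superfamily" or "kinase family" in its RefSeq product name. Those names cover 940 genes, including some lipid kinases and regulatory subunits, but not every kinase. *CIPK6*, for example, is named SOS3-interacting protein 3 and averaged 218 CPM in *msh-1* and 237 CPM in WT. Among all genes *SnRK2.10* was in place 264 by mean CPM.

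**Figure D1:**
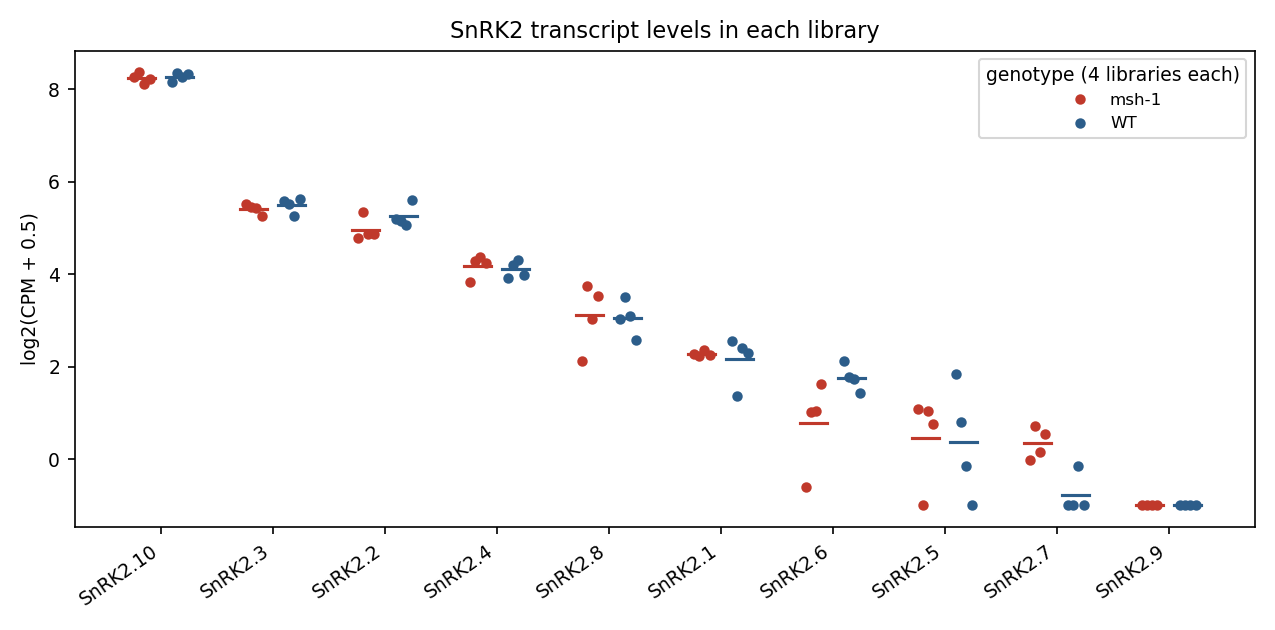
Levels of the 10 SnRK2 members on the y axis, as log2(CPM + 0.5), for each library of *msh-1* (left, red) and WT (right, blue), with members on the x axis in order of mean level. Each point is 1 library and each bar the mean of 4; *SnRK2.10* lies above all others in all 8 libraries and the genotypes overlap for all members with counts but *SnRK2.7*.

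*SnRK2.3* and *SnRK2.2* of subclass III came next in level. *SnRK2.3* (AT5G66880) had 45.1, 43.6, 43.0 and 38.1 CPM in *msh-1* libraries 1 to 4, against 47.8, 45.2, 37.6 and 49.3 CPM in WT libraries 1 to 4. Its log2 fold change was -0.06 ± 0.12 (SE, edgeR, adjusted p = 0.931), and the groups overlap. *SnRK2.2* (AT3G50500) had 27.0, 40.2, 28.8 and 28.6 CPM in *msh-1* libraries 1 to 4, against 36.2, 35.1, 32.8 and 48.2 CPM in WT libraries 1 to 4. *msh-1* library 2 stood above 3 of the 4 WT libraries while the other *msh-1* libraries were below all of them. The log2 fold change of *SnRK2.2* was -0.27 ± 0.16 (SE, edgeR, adjusted p = 0.669), with a 95% interval from -0.60 to 0.06. With 1 library left out it ran from -0.39 without *msh-1* library 2 (edgeR adjusted p = 0.271) to -0.18 without WT library 4 (edgeR adjusted p = 0.742), and it was -0.10 without WT library 4 and *msh-1* library 1.

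*SnRK2.6* (AT4G33950) was scarce in these libraries. It had 1, 4, 5 and 11 counts in *msh-1* libraries 1 to 4, against 5, 7, 7 and 2 counts in WT libraries 1 to 4, and did not pass the filter on low counts. Scaled to depth this was 0.160, 1.53, 1.55 and 2.6 CPM in *msh-1*, against 3.85, 2.93, 2.8 and 2.19 CPM in WT. Only *msh-1* library 4 reached above the lowest WT library, and the exact two-sided permutation test over 70 assignments gave p = 0.0571. The pooled rates differed by a ratio of 0.435 (*msh-1* over WT), with an exact interval from 0.226 to 0.838 that covers counting error only. In the edgeR fit without a filter its log2 fold change was -1.13 ± 0.53 (SE), with an unadjusted p of 0.0409 and an adjusted p of 0.563. With DESeq2 it was -1.06 ± 0.71 (SE), with an unadjusted p of 0.133 and an adjusted p of 0.9996. The guard cell markers are given beside it: the sum of *FAMA*, *MYB60*, *HT1*, *KAT1* and *SLAC1* was 2.25, 1.91, 0.928 and 2.13 CPM in *msh-1* libraries 1 to 4, against 4.62, 4.60, 6.40 and 3.29 CPM in WT libraries 1 to 4. All 5 had a count in at least 1 library, none passed the filter, and each of them overlapped between genotypes on its own (exact permutation p of 0.114 for *FAMA*, 0.143 for *MYB60*, 0.486 for *HT1*, 0.371 for *KAT1* and 0.343 for *SLAC1*). Of the 36 WT counts, 10 were *FAMA* in WT library 3, and the sum in WT library 4 was at that library's floor of 3 counts. The part of these markers in the level of *SnRK2.6* was not tested.

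**Figure D2:**
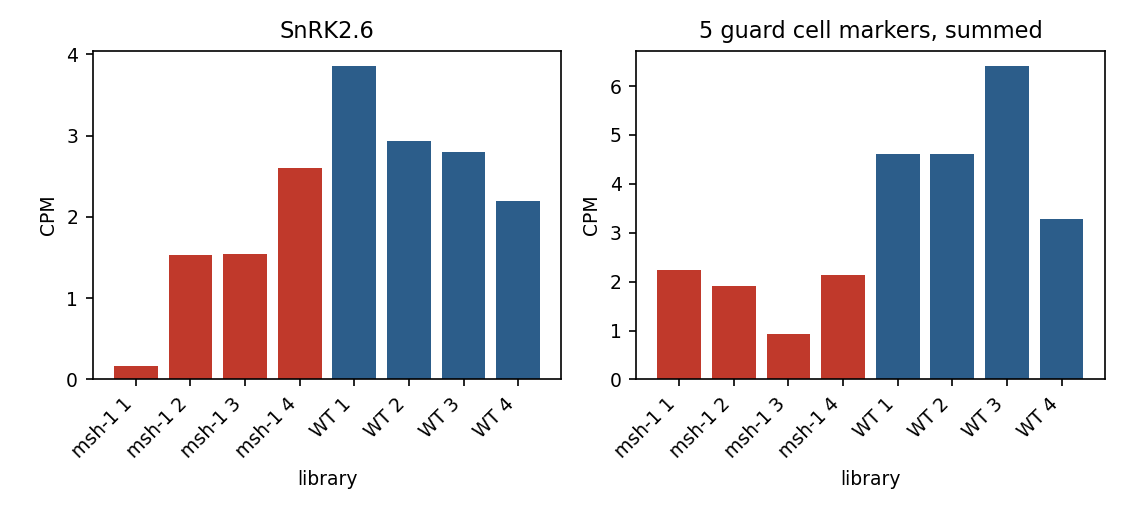
CPM on the y axis in each of the 4 *msh-1* (red) and 4 WT (blue) libraries on the x axis, for *SnRK2.6* (left panel) and for the sum of the 5 guard cell markers (right panel); each bar is 1 library. *SnRK2.6* ran from 0.160 to 2.6 CPM in *msh-1* and from 2.19 to 3.85 CPM in WT, with overlap. The marker sums did not overlap, while each marker did on its own. The sum in WT library 4, at 3.29 CPM, was at that library's floor of 3 counts. Of single genes with a count, 3.92% do not overlap, and the share for sums of 5 genes was not computed.

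Among the other subclass I members, *SnRK2.4* (AT1G10940) had 13.6, 19.1, 20.1 and 18.5 CPM in *msh-1* libraries 1 to 4, against 14.6, 18.0, 19.2 and 15.3 CPM in WT libraries 1 to 4. The groups overlap and the log2 fold change was 0.02 ± 0.17 (SE, edgeR, adjusted p = 0.989). *SnRK2.1* (AT5G08590) averaged 4.36 ± 0.193 CPM in *msh-1* and 4.17 ± 1.44 CPM in WT (SD, n = 4 each). Its log2 fold change was 0.14 ± 0.30 (SE, edgeR, adjusted p = 0.941). *SnRK2.5* (AT5G63650) had 10, 0, 5 and 5 counts in *msh-1* libraries 1 to 4, against 4, 3, 1 and 0 in WT libraries 1 to 4, and was not tested by edgeR. *SnRK2.9* (AT2G23030) had no count in any library, which allows a level of up to 0.184 CPM over the *msh-1* libraries and 0.423 CPM over the WT libraries.

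The subclass II members were low. *SnRK2.8* (AT1G78290) had 3.85, 13.0, 7.73 and 11.1 CPM in *msh-1* libraries 1 to 4, against 7.70, 10.9, 8.00 and 5.48 CPM in WT libraries 1 to 4. The lowest level of each genotype was in *msh-1* library 1 and WT library 4, as for the green tissue sum, and a link was not tested. The log2 fold change of *SnRK2.8* was -0.04 ± 0.36 (SE, edgeR, adjusted p = 0.989), and its 95% interval, from -0.81 to 0.74, was the widest among the tested members. *SnRK2.7* (AT4G40010) had 3, 3, 2 and 4 counts in *msh-1* libraries 1 to 4, against 0, 0, 1 and 0 counts in WT libraries 1 to 4. It was the only member with counts whose groups did not overlap, with an exact two-sided permutation p of 0.0286, the smallest that 70 assignments can give. Of all 23032 genes with a count, 3.92% did not overlap between genotypes, and 2.22% did so with *msh-1* higher. The pooled rate of *SnRK2.7* differed by a ratio of 5.23 (*msh-1* over WT), with an exact counting interval from 0.773 to 223, and the deeper libraries were all *msh-1*.

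Across the family, 0 of the 6 tested members passed both thresholds (adjusted p below 0.05, fold change over 1.5), where edgeR called 48 of 10902 genes, or 0.44%. None of the 6 had an unadjusted p under 0.05, against 8.69% of all genes tested, and DESeq2 and limma-voom called 0 members as well. The median log2 fold change of the 6 was -0.03, beside -0.01 over all genes tested. The 95% intervals of the fold changes reached no lower than 0.570 and no higher than 1.72, and lay between 0.869 and 1.1 for *SnRK2.10*.

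The summed level of the family was 405, 453, 387 and 403 CPM in *msh-1* libraries 1 to 4, against 405, 444, 412 and 447 CPM in WT libraries 1 to 4. Subclass I held 79.5% ± 1.31 of the sum in *msh-1* and 78.0% ± 1.84 in WT (SD, n = 4 each). Subclass III held 18.2% ± 0.832 in *msh-1* and 20.1% ± 2.2 in WT (SD, n = 4 each). The subclass III shares of the 2 genotypes overlapped, and their difference was not tested. *SnRK2.10* alone held 72.1% to 76.3% of the sum in *msh-1* and 70.7% to 74.2% in WT.

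**Figure D3:**
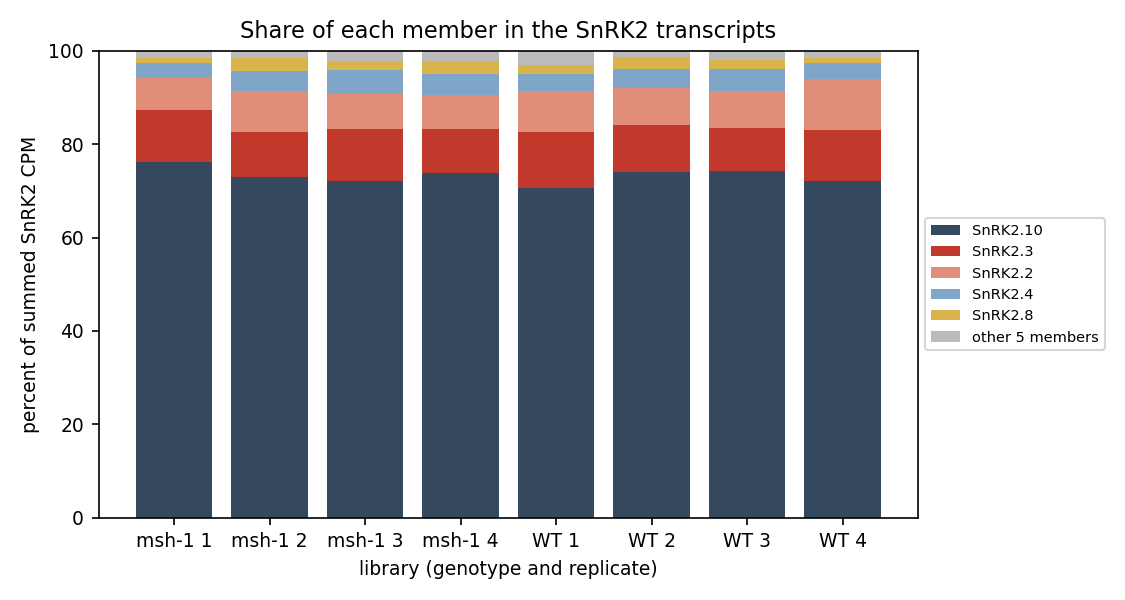
Stacked bars of the share of each member in the summed SnRK2 CPM (y axis, percent) in the 4 *msh-1* and 4 WT libraries (x axis). *SnRK2.10* held between 70.7% and 76.3% of the sum in every library, and *SnRK2.3* and *SnRK2.2* most of the rest.

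The order of levels was the same at the top in all libraries. *SnRK2.10* exceeded *SnRK2.3* in 8 of 8 libraries, by a ratio of means of 7.03. *SnRK2.3* exceeded *SnRK2.2* in 8 of 8 libraries, by 1.26, although their ranges over libraries overlap. *SnRK2.2* exceeded *SnRK2.4*, and *SnRK2.4* exceeded *SnRK2.8*, in 8 of 8 libraries with no overlap of the ranges. From *SnRK2.8* downwards, through *SnRK2.1*, *SnRK2.6*, *SnRK2.5* and *SnRK2.7*, neighbouring members overlapped.

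Around the kinases, the ABA pathway lists held 58 genes, of which 39 were tested and 0 were called by edgeR, DESeq2 or limma-voom. By edgeR 4 had an unadjusted p under 0.05 with *msh-1* higher, against 4.02% of all genes, and 2 with *msh-1* lower, against 4.67%. The median log2 fold change of the 39 was 0.04. Upstream of the kinases, all 9 clade A PP2C genes were tested, with a median log2 fold change of 0.14. Of these 9, 3 had an unadjusted p under 0.05 by edgeR with *msh-1* higher (*PP2CA*, *HAI2* and *HAI3*), against 4.02% of all genes tested. The groups of these 3 did not overlap, where 2.22% of all genes with a count had no overlap and *msh-1* higher. *AHG1*, the most abundant of them, averaged 517 ± 25.7 CPM in *msh-1* and 500 ± 36.6 CPM in WT (SD, n = 4 each). *PP2CA*, whose product binds DOG1, averaged 187 ± 20.0 CPM in *msh-1* and 151 ± 7.02 CPM in WT (SD, n = 4 each). Its log2 fold change was 0.32 ± 0.09 (SE, edgeR, adjusted p = 0.220). *HAI2* and *HAI3*, which encode ABA-induced phosphatases of the same clade, had log2 fold changes of 0.30 ± 0.10 and 0.40 ± 0.15 (SE, edgeR, adjusted p = 0.344 and 0.402). Of the 14 ABA receptor genes 8 were tested, with a median log2 fold change of 0.21, and 6 of the 8 were above 0. *PYL12* had the smallest p, with a log2 fold change of -0.44 ± 0.14 (SE, edgeR, adjusted p = 0.283). The groups of *PYL12* did not overlap either, with *msh-1* lower. *PYL11* was at -0.42 ± 0.17 (SE, edgeR, adjusted p = 0.492), with overlap. These were the 2 pathway genes with an unadjusted p under 0.05 and *msh-1* lower. Their gene IDs (AT5G45870 and AT5G45860) are close to that of *DOG1* (AT5G45830), and a local effect of the insertion was not tested. *PYL5*, also among the more abundant receptor genes, was at 0.21 ± 0.12 (SE, edgeR, adjusted p = 0.660). Of 14 genes for RAF kinases, which phosphorylate SnRK2s, 8 were tested and 0 called, with a median log2 fold change of 0.02. Among them AT1G16270 and AT5G57610 were the most abundant, at 0.05 ± 0.12 and -0.11 ± 0.13 (SE), and AT1G18160 had the smallest p, at 0.29 ± 0.20 (SE, edgeR, adjusted p = 0.732).

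Downstream, *ABI5*, the bZIP factor phosphorylated by subclass III kinases in seeds, averaged 556 ± 39.5 CPM in *msh-1* and 559 ± 30.0 CPM in WT (SD, n = 4 each). Of the 9 group A bZIP genes 5 were tested and 0 called, with a median log2 fold change of -0.07. *EEL*, a related bZIP gene, had a log2 fold change of -0.07 ± 0.12 (SE, edgeR, adjusted p = 0.902). *RAB18*, a dehydrin gene induced by ABA, averaged 43649 ± 3240 CPM in *msh-1* and 44375 ± 3307 CPM in WT (SD, n = 4 each). *RD29B*, another ABA-induced gene, had a log2 fold change of 0.21 ± 0.07 (SE, edgeR, adjusted p = 0.283), and its groups did not overlap. *ABF1*, with the smallest p among the bZIP genes, was at -0.26 ± 0.30 (SE, edgeR, adjusted p = 0.854), but at -0.05 without WT library 1 and -0.47 without WT library 2. *EM6*, a LEA protein gene, was at -0.09 ± 0.10 (SE, edgeR, adjusted p = 0.834). Of 7 other substrates and partners 4 were tested and 0 called. *VCS*, an mRNA decapping factor, was at -0.21 ± 0.13, *BRM*, a chromatin remodeller, at -0.03 ± 0.14, and AT4G38810, a calcium-binding EF-hand protein gene, at 0.07 ± 0.10 (SE, edgeR, adjusted p = 0.710, 0.975 and 0.887).

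The related kinase families were measured beside SnRK2. The SnRK1 catalytic genes *KIN10* and *KIN11* had log2 fold changes of 0.10 ± 0.29 and 0.01 ± 0.22 (SE, edgeR, adjusted p = 0.959 and 0.995). Of the 26 SnRK3 (CIPK) genes 14 were tested and 0 called, 1 had an unadjusted p under 0.05, and their median log2 fold change was -0.06. The single one was *CIPK11*, at 0.64 ± 0.29 (SE, edgeR, adjusted p = 0.559), while the abundant *CIPK6* and *CIPK14* were at -0.13 ± 0.08 and 0.29 ± 0.23 (SE, edgeR, adjusted p = 0.692 and 0.763). *CIPK11* was at 0.38 without *msh-1* library 3. *CIPK14* was at 0.15 without *msh-1* library 2 and at 0.52 without *msh-1* library 1, with an edgeR adjusted p of 0.0449 there. *CIPK20* (*SnRK3.6*), the gene on the other side of *MUSHER*, had 5, 4, 4 and 9 counts in *msh-1* libraries 1 to 4, against 0, 3, 6 and 0 counts in WT libraries 1 to 4, and was not tested by edgeR.

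**Figure D4:**
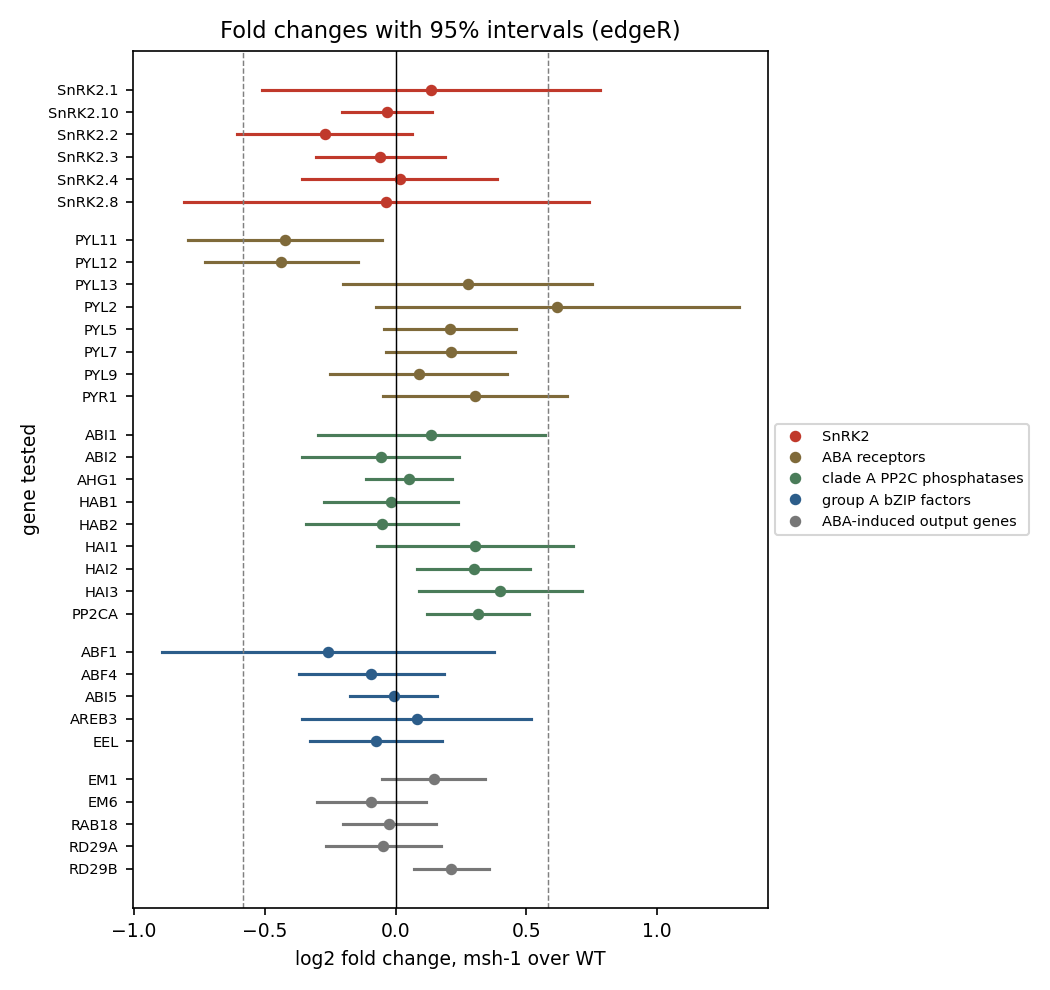
log2 fold change of *msh-1* over WT (x axis) with its 95% interval for each tested gene (y axis) of the SnRK2 family and of 4 ABA pathway lists; dashed lines mark a fold change of 1.5. The points of the 6 tested SnRK2 members lie between -0.27 and 0.14.

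The genes whose levels over the 8 libraries were most like *SnRK2.10*, among 10901, were AT3G04040, AT5G28900 and AT2G28390, with Pearson correlations of 0.958, 0.949 and 0.940. For *SnRK2.3* they were AT2G28430, *GSA2* and *VPS11*, with 0.952, 0.948 and 0.947. These are descriptions over 8 libraries that share depth and genotype, and *SnRK2.10* itself ranged over only 0.24 on the log2 scale. In the windows from 250 bases before to 50 after the annotated gene starts, ACGTG or its reverse complement CACGT, the core letters of the ABA-responsive element, stood in 4 of 10 members (*SnRK2.3*, *SnRK2.5*, *SnRK2.7* and *SnRK2.9*) and in 26.7% of 27443 promoters. A CACGTG palindrome gives overlapping matches of both.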

How the data were processed

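The authors aligned the 3'RNA-seq reads with STAR 2.7.8a to TAIR10 and deposited whole-number counts per gene, not normalized, with 1 file per library. The annotation, strand setting and use of molecular identifiers in counting are not given in the sources used here. The genotype comparison used edgeR 4.0.16 under R 4.3.3 (filterByExpr, TMM factors, glmQLFit with legacy = FALSE, glmQLFTest, Benjamini-Hochberg adjustment over all genes tested). SE is the absolute log2 fold change over the square root of F. Single members were also compared by an exact permutation test on log2(CPM + 0.5). DESeq2 1.42.0 and limma 3.58.1 were alternatives, with other factors and filters, a replicate block and left-out libraries. The exact intervals of the pooled rate ratios and the floors cover counting error only. Intervals of log2 fold changes and of fold changes were instead built from the SE of the edgeR fit. Labels do not say whether libraries came from separate plants beyond calling them biological replicas. Named were all members, and in each list called genes, the most abundant and the smallest p. *HAI3*, *LHCB1.1* and *PYL11* fall outside this rule and were chosen after their values were seen. Members and lists were chosen with earlier results of these data known. Replicate numbers did not pair the libraries. No protein table was used here, so activation loop codons from the genome stand in for proteins. ChIRP-seq and ChIDP-seq libraries were left out.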

Additional observations from a re-analysis of the deposited data

Results flagged for a closer look

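In *SnRK2.2*, *msh-1* library 2, at 40.2 CPM, stood apart from the other 3 *msh-1* libraries. In *SnRK2.7*, WT library 3, at 0.400 CPM, stood apart from the other WT libraries, which were all at 0; this is a single count beside 3 zeros, for which the gap fills the whole range by construction. In all 32 groups of 4 were checked and 2 stood out, where chance gives about 1 in 20 for groups without such ties.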

How the results depend on the processing

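No SnRK2 member and no gene of the ABA pathway lists was called under any of the 17 alternatives run. The fold threshold of 1.5 alone kept some uncalled: by edgeR without *msh-1* library 1 the adjusted p was 0.0469 for *PP2CA* and 0.0469 for *PYL12*, and without WT library 4 and *msh-1* library 1 together it was 0.0235 for *PP2CA*, 0.0287 for *PYL12* and 0.0231 for *HAI2*. The count of all genes called was 48, and was 89 with DESeq2, 24 with limma-voom, 264 without a filter and 27 with the replicate block; it was 45 in edgeR's legacy form. It ran from 5 to 215 when 1 library was left out (5 without WT library 3, 7 without WT library 2, 10 without WT library 1, 145 without WT library 4, 170 without *msh-1* library 2 and 215 without *msh-1* library 1), and was 288 without WT library 4 and *msh-1* library 1 together. Same-numbered libraries did not deviate together (correlations of -0.22, 0.15, 0.06 and -0.09), so the replicate block shares only numbers. Log2 fold changes near 0 changed sign. *SnRK2.4* was -0.038 with limma-voom. *SnRK2.8* was 0.087 with DESeq2, 0.070 with the replicate block and 0.22 without WT library 4 and *msh-1* library 1, and *SnRK2.10* was 0.0028 without a filter. *RAF35* (AT5G57610) was 0.0040 without those 2 libraries, *ABI5* 0.0015 with DESeq2, 0.014 with library totals and 0.028 without a filter, *BRM* 0.0045 without a filter, and *RAB18* 0.0016 with library totals, 0.014 without a filter and 0.0094 without those 2 libraries. With 1 library left out, log2 fold changes ran from -0.17 to 0.30 for *SnRK2.1*, from -0.047 to 0.15 for *SnRK2.4*, from -0.24 to 0.31 for *SnRK2.8*, from -0.072 to 0.0088 for *SnRK2.10*, from -0.019 to 0.12 for *RAF18* (AT1G16270), from -0.043 to 0.041 for *ABI5*, from -0.14 to 0.11 for *BRM*, from -0.061 to 0.028 for *RAB18*, from -0.14 to 0.37 for *KIN10* and from -0.15 to 0.11 for *KIN11*. The summed SnRK2 level in *msh-1* was 96.5% of WT, and 93.3% to 98.5% with 1 library left out. Leaving out a library was not run for the exact permutation test. Depth limits *SnRK2.5*, *SnRK2.6*, *SnRK2.7* and *SnRK2.9*, which stayed at or under 11 counts in every library.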
